A study of Oryctolagus cuniculus with 6 samples.

Results

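The genes described here are 39 rabbit genes of the extracellular matrix, collagen fibrils, cartilage and cell adhesion. They are the union of the genes that the authors' deposited enrichment tables list under 5 terms: collagen fibril organization, cartilage condensation, extracellular matrix organization, cell adhesion and ECM-receptor interaction. Genes of the term proteolysis were to be left out, and 0 of the 39 were among them. The whole count table holds 16815 genes, of which 13598 passed a filter on low counts and were tested. Of the 39 genes, 38 passed that filter.

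RNA was sequenced from the trachea of wild-type rabbits (Oryctolagus cuniculus) on day 14, with 3 libraries in each of 2 groups. The blank libraries carry the treatment label of an epithelial deficiency. The hydrogel libraries are labelled with an epithelial injury and LA@PA-TA@C, the hydrogel of the study, so the labels word the lesion differently in the groups. Per the design text, the 3 libraries in each group are biological replicates. The labels give neither strain, sex nor age, nor whether tissue of several animals was pooled. Total counts ran from 16827419 to 23390531 per library, and the ranges of the groups overlapped.

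The extracellular matrix is the network of proteins and sugars that cells secrete around themselves. In the trachea, rings of cartilage hold the airway open and a collagen-rich connective tissue lies between the rings and under the epithelium. Fibrillar collagens assemble into fibers outside the cell, glycoproteins and proteoglycans bind to those fibers, and integrins and other receptors on the cell surface hold on to them and signal through focal adhesions. Cartilage condensation is the step at which mesenchymal cells gather before they become chondrocytes, the cells that make cartilage.

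The genes are known only by Ensembl identifiers: 0 of the 39 matched a symbol in the reference gene table, and the files do not pair them with names. The labelled tissue could therefore not be checked against defining markers. The terms are the only annotation, and each gene is called here by a term and a letter. Fibril A to G are the 7 genes of collagen fibril organization. Condensation A and B are the other genes of cartilage condensation, which also lists fibril C and F. Matrix A to I are the 9 genes of extracellular matrix organization. Interaction A to J are the 10 remaining genes of ECM-receptor interaction, and adhesion A to K are the 11 genes listed under cell adhesion and none of the other 4 terms. Letters follow the mean count within each set. Levels are given as CPM, a gene's counts scaled to a common library total. They are not corrected for gene length, so levels are compared between libraries and not between genes.

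The 39 genes were chosen by their lower counts in these same hydrogel libraries: the 5 lists all belong to the same cluster of the authors' enrichment tables, and every one of the 39 genes has a lower mean CPM in hydrogel. Direction, size of the difference and calls are therefore a description, and no test of the genes as a group was made. A gene is said to have fallen where its Benjamini-Hochberg adjusted p over all 13598 genes was under 0.05 in edgeR's quasi-likelihood test. Of the 38 genes tested, 12 fell, 0 rose and 26 did not pass, where 1.88% of all genes tested fell, 4.49% rose and 6.36% changed either way. All 38 had an unadjusted p under 0.05 in edgeR, as did 10.7% of all genes tested in that direction. DESeq2, the tool of the authors' own comparison, called all 39 lower, and 5.62% of the genes it tested. Passing with it, or by an unadjusted p, is not independent of how the 39 were chosen. All 38 fitted fold changes were below 0, where 51.4% of all genes tested were. The median log2 fold change of hydrogel over blank was -1.68, with a range from -3.09 to -1.03, where the median over all genes tested was -0.03. Of the 39 genes, 32 did not overlap between the groups, with every blank library above every hydrogel library, and 12.6% of all genes tested did the same. These shares over all genes are also the background for the counts of each set below. The mean CPM in blank was between 1.95 and 7.78 times that in hydrogel for the 38 tested genes, with a median of 3.04. The number that fell depended on which libraries were in the fit. With all 6 libraries, 255 of all genes tested fell. Leaving out blank replicate 1, 2 or 3 gave 8, 19 and 4 of the 39 genes, where 138, 246 and 103 of all genes tested fell. Only fibril G and condensation A were called in each of those fits. Leaving out hydrogel replicate 1 gave 2 of the 39, where 106 of all genes tested fell. Leaving out hydrogel replicate 2 or 3 gave 0 in either case. The last fits called few genes of any kind (7 and 11). In them, 31 and 35 of the 39 genes had an unadjusted p under 0.05 (edgeR). The share of all genes with such an unadjusted p was not counted in these fits, and the 39 were chosen on this contrast, so nothing is read from those counts. In bulk tissue, fewer cells of a type and less RNA per cell cannot be told apart.

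**Figure D1:**
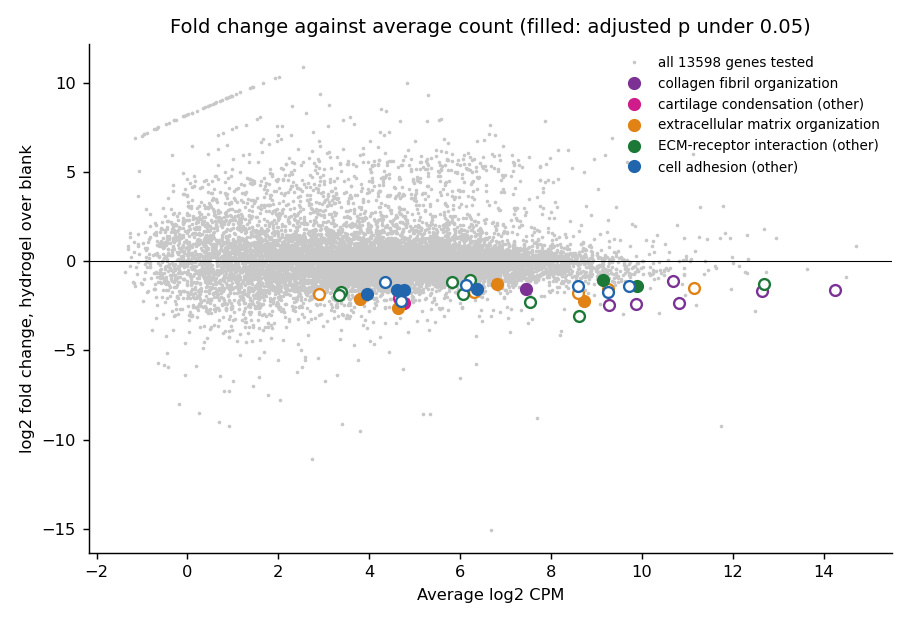
Log2 fold change of hydrogel over blank against the average log2 CPM, with 1 gray point for each of the 13598 genes tested and 1 colored circle for each of the 38 tested genes described here. Filled circles had an adjusted p under 0.05 and open circles did not; all 38 lie below 0, between -3.09 and -1.03, on the contrast that was used to choose them.

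Together the 39 genes took several percent of the RNA read from blank tracheae, most of it from a few genes. They held 6.00% of all counts in blank replicate 1, 4.17% in blank replicate 2 and 9.67% in blank replicate 3. In hydrogel replicates 1, 2 and 3 they held 2.43%, 2.29% and 2.26%. The blank mean was 6.61 ± 2.80% and the hydrogel mean 2.33 ± 0.0932% (SD, n = 3). The groups did not overlap, and the blank libraries lay far apart while the hydrogel libraries lay close together. The 7 fibril genes alone made up 4.51 ± 2.13% of the blank libraries and 1.50 ± 0.0912% of the hydrogel libraries (SD, n = 3). Without them, the remaining 32 genes held 2.23%, 1.32% and 2.75% of counts in blank replicates 1, 2 and 3. They held 0.832%, 0.804% and 0.838% in hydrogel replicates 1, 2 and 3. Among the 10 genes with the most counts in the whole data set, 3 were among these 39: fibril A, fibril B and interaction A. Their blank means were 28074, 9361 and 8962 CPM and their hydrogel means 9625, 3128 and 3980 CPM, so these 3 weigh most in the shares. The closeness of the hydrogel libraries holds for the sum and not for every gene. Fibril C and F ranged 4.82-fold and 5.25-fold among the hydrogel libraries.

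**Figure D2:**
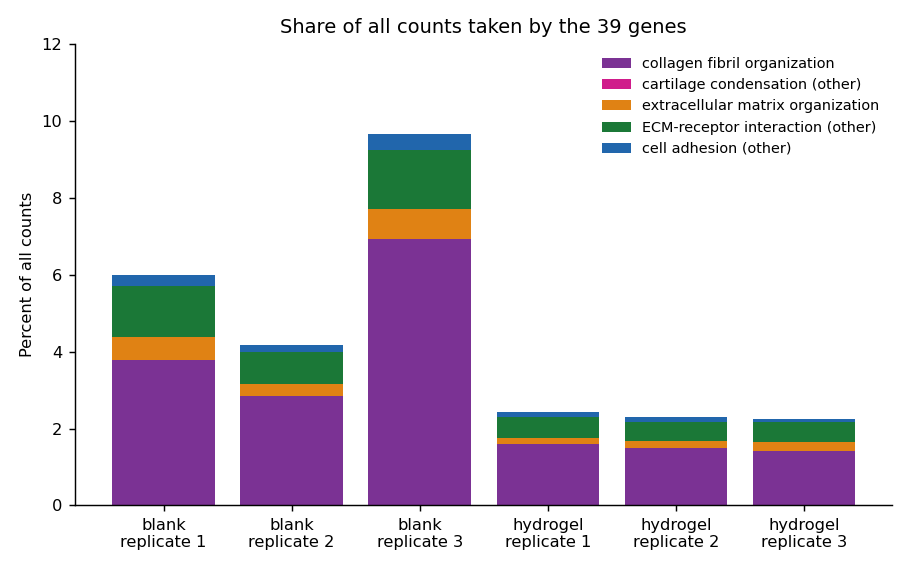
Percent of all counts in each library taken by the 39 genes, stacked by the term that names each set; each gene is counted once. The bars reach 6.00, 4.17 and 9.67% in blank and 2.43, 2.29 and 2.26% in hydrogel replicates 1, 2 and 3, and the 7 collagen fibril genes are the largest block in each.

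Collagen fibril organization is the ordering of collagen molecules into fibrils, and the authors listed 7 of the 24 genes that the term has in their background. Of these 7 fibril genes, 1 fell and 6 did not pass. Fibril A was at 20321, 18821 and 45080 CPM in blank replicates 1, 2 and 3 and at 10378, 9466 and 9032 CPM in hydrogel replicates 1, 2 and 3. Every blank library lay above every hydrogel library, and blank replicate 3 stood apart at 2.40 times blank replicate 2. On the log2 scale hydrogel minus blank was -1.62 (approximate standard error 0.42). Fibril B was at 5808, 6331 and 15943 CPM in blank and 3863, 3044 and 2478 CPM in hydrogel, with the same lone high value in blank replicate 3 (log2 fold change -1.66, standard error 0.46). Fibril A and B are also listed under ECM-receptor interaction, focal adhesion, AGE-RAGE signaling and PI3K-Akt signaling. Fibril D was at 1635, 1812 and 3055 CPM in blank and at 1276, 960 and 946 CPM in hydrogel, again without overlap. Its log2 fold change of -1.10 was the smallest of the fibril genes with all 6 libraries.

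Fibril G (ENSOCUG00000003313) was the fibril gene that fell, and the tightest of them. It was at 261, 196 and 292 CPM in blank and at 92.2, 88.9 and 89.1 CPM in hydrogel. The blank mean was 250 ± 48.8 CPM and the hydrogel mean 90.1 ± 1.90 CPM (SD, n = 3). On the log2 scale it fell by 1.54, with a standard error of 0.24. The authors' tables list it under heart development as well.

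The other 3 fibril genes showed another order of libraries. Fibril C was at 4544, 794 and 3117 CPM in blank replicates 1, 2 and 3 and at 193, 688 and 932 CPM in hydrogel replicates 1, 2 and 3. The groups overlapped, because blank replicate 2 lay between hydrogel replicates 2 and 3. Fibril E was at 3252, 266 and 870 CPM in blank and at 133, 359 and 407 CPM in hydrogel, where blank replicate 2 lay below 2 of the hydrogel libraries. Fibril F was at 1870, 270 and 799 CPM in blank and at 60.2, 217 and 316 CPM in hydrogel. For all 3 genes blank replicate 1 was highest and hydrogel replicate 1 lowest. With all 6 libraries their log2 fold changes of -2.33, -2.41 and -2.42 were the largest of the fibril genes, with the largest standard errors (0.79, 0.92 and 0.85), and none of the 3 passed. Blank replicate 1 carried that rank. Without it the log2 fold changes of fibril C, E and F were -1.76, -0.98 and -1.48, and those of fibril A and B, at -1.78 and -1.89, were larger. Fibril A, B and D depended on blank replicate 3 instead: without it they were at -1.05, -0.97 and -0.71.

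**Figure D3:**
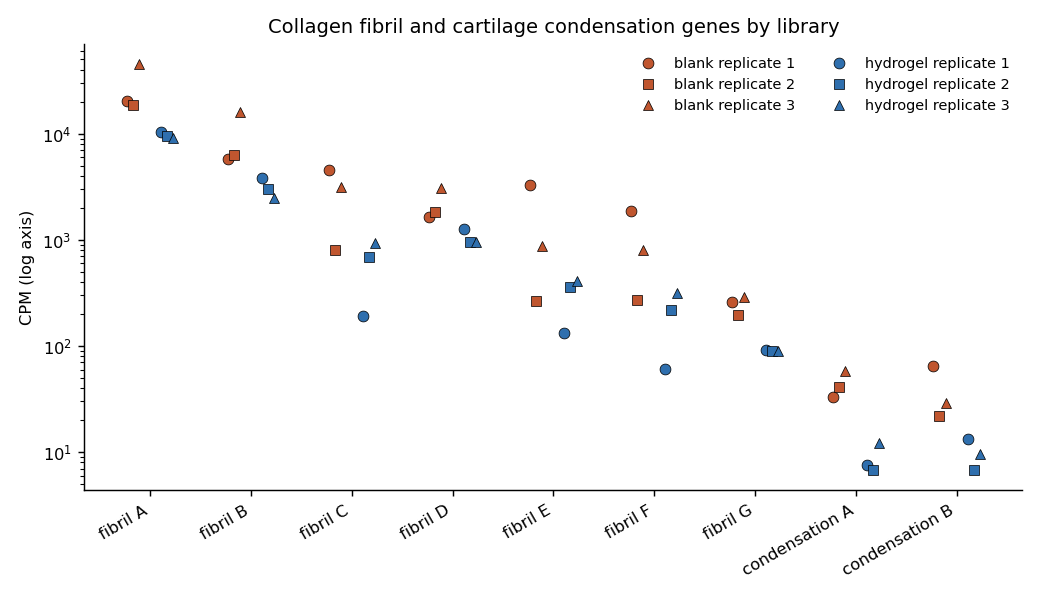
CPM on a log axis for the 7 collagen fibril genes and the 2 other cartilage condensation genes; red points are blank and blue points hydrogel libraries, and the marker shape gives the replicate. Fibril A, B, D and G have blank replicate 3 on top, while fibril C, E and F have blank replicate 1 on top and hydrogel replicate 1 at the bottom.

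Cartilage condensation was represented by 4 of the 11 genes in the authors' background: fibril C and F, condensation A and condensation B. Among the 4, 1 fell and 3 did not pass, and their median log2 fold change with all 6 libraries was -2.35. Without blank replicate 1, fibril C, fibril F and condensation B were at -1.76, -1.48 and -1.37, and condensation A was at -2.49. Condensation A fell. It was at 33.1, 40.7 and 58.2 CPM in blank and at 7.53, 6.80 and 12.2 CPM in hydrogel, and its lowest blank library was 2.71 times its highest hydrogel library. It fell by 2.36 on the log2 scale (standard error 0.38). Condensation B was at 64.5, 21.7 and 29.0 CPM in blank and 13.3, 6.84 and 9.57 CPM in hydrogel. Here too the groups stood apart, with blank replicate 1 highest, at a log2 fold change of -2.05 and a standard error of 0.52. Condensation A is also listed under positive regulation of cell migration, and condensation B under heart development and cellular response to interleukin-1.

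Extracellular matrix organization, the building and remodeling of the matrix, gave 9 of its 55 background genes. Of these 9 matrix genes, 4 fell and 5 did not pass, and 8 of the 9 did not overlap between groups. Over all genes tested, 1.88% fell and 12.6% did not overlap in that direction. Matrix G (ENSOCUG00000029358) had the largest fold change of the 12 genes that fell, with all 6 libraries in the fit. It was at 27.1, 28.7 and 67.7 CPM in blank and at 4.08, 8.66 and 8.44 CPM in hydrogel. Its lowest blank library stood at 3.13 times its highest hydrogel library, and the log2 fold change was -2.61 with a standard error of 0.52. Without blank replicate 3 the log2 fold change of matrix G was -1.99 and did not pass, and matrix G did not pass with limma-voom either. Matrix H, which also fell, was at 26.9, 28.4 and 11.9 CPM in blank and 4.44, 6.19 and 5.05 CPM in hydrogel. It was one of the 4 genes with blank replicate 3 as the lowest blank library on the CPM scale, or 2 with TMM scaling.

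Matrix B, C, D and E are listed under extracellular matrix organization, ECM-receptor interaction and cell adhesion at once, and the authors' tables also list all 4 under focal adhesion, PI3K-Akt signaling and malaria. As background, the KEGG map named malaria holds host adhesion molecules and thrombospondins; which of these the 4 genes are, the files do not say. Matrix C fell. It was at 728, 333 and 923 CPM in blank and at 170, 143 and 132 CPM in hydrogel, with a log2 fold change of -2.25 and a standard error of 0.42. Without blank replicate 1 the log2 fold change of matrix C was -2.14, and without blank replicate 3 it was -1.91. Matrix C passed in neither of these fits. Matrix E also fell, from 105, 168 and 194 CPM to 64.1, 69.8 and 63.9 CPM, with the smaller log2 fold change of -1.28 (standard error 0.24). Matrix B was at 1342, 500 and 740 CPM in blank and 212, 334 and 391 CPM in hydrogel, a log2 fold change of -1.55 that did not pass and was -1.01 without blank replicate 1. Matrix D was at 297, 385 and 1041 CPM in blank and 91.7, 258 and 178 CPM in hydrogel, and did not pass at -1.78, or -0.96 without blank replicate 3. In all 4 genes the groups stood apart, but the highest blank library was 1.85 to 3.51 times the lowest.

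Matrix A, also listed under cell adhesion, was at 3366, 1519 and 4674 CPM in blank and at 887, 1172 and 1530 CPM in hydrogel. The groups overlapped slightly, since blank replicate 2 lay just below hydrogel replicate 3. Its log2 fold change of -1.50 with a standard error of 0.47 did not pass. The remaining matrix F and I did not pass either, with log2 fold changes of -1.70 and -1.85. Matrix F was at 225 CPM in blank replicate 3 and at 52.3 and 69.0 CPM in the other blank libraries.

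ECM-receptor interaction lists matrix proteins together with the cell-surface receptors that bind them, and 16 of its 61 background genes are among the 39. Of the 10 interaction genes, 2 fell and 8 did not pass. Of these 10 genes, 7 are also listed under cell adhesion, and 9 under PI3K-Akt signaling. Interaction A was at 8931, 5783 and 12171 CPM in blank and at 4206, 3767 and 3968 CPM in hydrogel, without overlap. It is listed under wound healing too, and its log2 fold change of -1.25 (standard error 0.35) did not pass. Interaction B fell, from 1682, 1166 and 1134 CPM to 634, 479 and 499 CPM, a log2 fold change of -1.37 with a standard error of 0.27. Interaction C fell from 557, 883 and 840 CPM to 478, 334 and 320 CPM. Its log2 fold change of -1.05 was the smallest of the 12 genes that fell, and its lowest blank library was only 1.17 times its highest hydrogel library. With all 6 libraries, interaction F had the smallest log2 fold change of the 38, -1.03 with a standard error of 0.26. It was at 108, 85.2 and 95.2 CPM in blank and 64.7, 43.8 and 39.2 CPM in hydrogel, and did not pass although the groups did not overlap.

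Interaction D had the largest log2 fold change of the 38 tested genes with all 6 libraries and did not pass. It was at 1500, 130 and 316 CPM in blank and at 26.4, 109 and 115 CPM in hydrogel. Blank replicate 1 was 11.6 times blank replicate 2, and hydrogel replicate 3 was 4.36 times hydrogel replicate 1. The log2 fold change was -3.09 with a standard error of 1.01, and without blank replicate 1 it was -1.46, smaller than that of matrix G (-2.81) or condensation A (-2.49). Its lowest blank library was 1.13 times its highest hydrogel library, so the groups barely stood apart. Interaction E and G overlapped between groups. Interaction E was at 580 CPM in blank replicate 3 and at 52.0 CPM in blank replicate 2, below 2 of the hydrogel libraries. Interaction G was at 177 CPM in blank replicate 1 and at 31.4 CPM in blank replicate 2. Interaction F, G, I and J are also listed under dilated cardiomyopathy, a KEGG map that, as background, holds integrins beside heart muscle proteins.

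Cell adhesion lists 24 genes of the 149 in the authors' background, and 11 of them, adhesion A to K, belong to none of the other 4 terms. Of the 10 tested, 4 fell (adhesion D, F, H and J) and 6 did not pass. Adhesion D was at 100, 131 and 132 CPM in blank and at 57.7, 40.4 and 29.8 CPM in hydrogel. Here the spread lay in the hydrogel libraries, with an SD of 0.45 on the TMM-scaled log2 CPM scale against 0.19 in blank, and the log2 fold change was -1.55 (standard error 0.27). Adhesion F fell from 30.3, 48.4 and 43.2 CPM to 18.1, 10.7 and 12.2 CPM. Adhesion D and F were the only 2 of the 39 still called when hydrogel replicate 1 was left out. Adhesion H and J fell by 1.61 and 1.84 on the log2 scale, to hydrogel means of 12.1 ± 2.06 and 6.81 ± 1.62 CPM (SD, n = 3). Adhesion G was at 80.0, 8.40 and 30.4 CPM in blank and 9.05, 11.0 and 7.90 CPM in hydrogel. It overlapped between groups, and blank replicate 1 was far above the rest, at 9.53 times blank replicate 2. Adhesion A, B, C, E and I did not overlap and did not pass, with log2 fold changes from -1.75 to -1.18.

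Adhesion K did not pass the filter on low counts. It had 10, 24 and 34 counts in blank replicates 1, 2 and 3 and 0 counts in each hydrogel library. With a floor of 3 counts per library in hydrogel, its mean was at least 7.98-fold lower there. This floor covers counting error only.

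**Figure D4:**
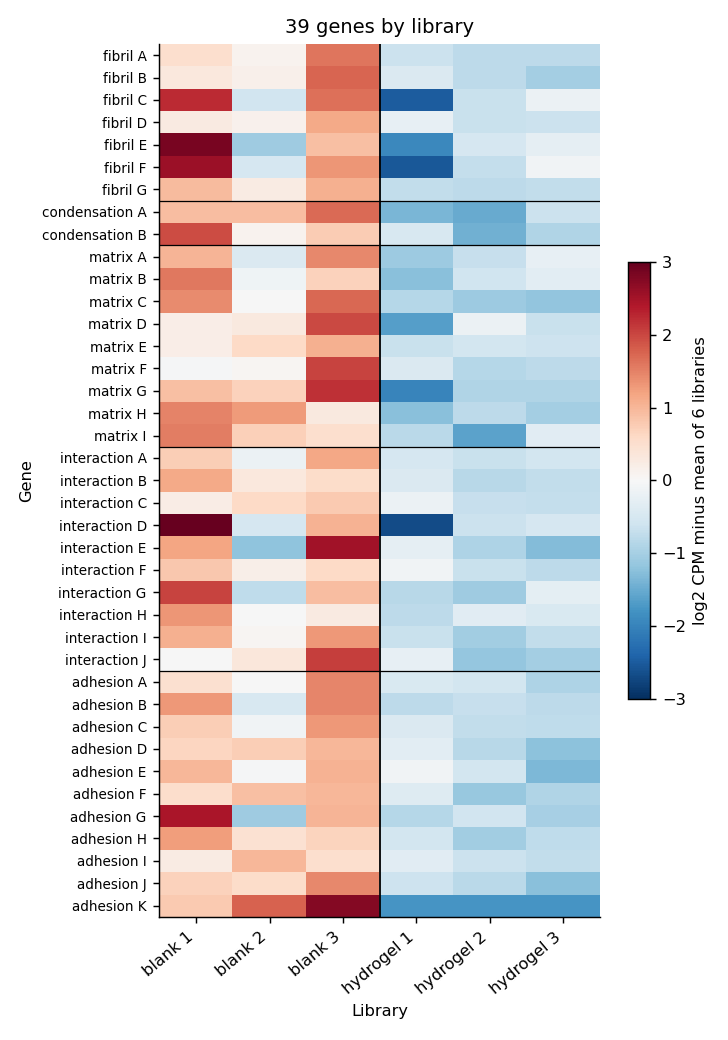
TMM-scaled log2 CPM of each of the 39 genes in each library, minus the gene's mean over the 6 libraries; red is above and blue below that mean, and lines part the sets of genes and the groups. The genes were chosen on the contrast between the blank and the hydrogel columns; within blank, on this scale, blank replicate 3 is reddest in 24 rows, blank replicate 1 in 14 and blank replicate 2 in 1.

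The order of libraries inside a group differed among the genes. It is not independent of how they were chosen, since a gene that 1 blank library lifts has a higher blank mean, so the shares over all genes are given for reference and nothing is read from the contrast. Blank replicate 3 was the highest blank library for 22 of the 39 genes (56.4%), blank replicate 1 for 13 (33.3%) and blank replicate 2 for 4 (10.3%). Over all genes tested, blank replicate 2 was highest for 46.5%, blank replicate 3 for 28.8% and blank replicate 1 for 24.7%. These shares depended on the scale. With TMM scaling, which corrects for genes that take a large share of a library, blank replicate 2 was highest for 1 of the 39 genes (2.56%) and for 30.2% of all genes tested. Blank replicate 3 was then highest for 24 genes (61.5%), against 35.2% of all genes tested. Blank replicate 2 was the lowest blank library for 21 of the 39 genes on the CPM scale (53.8%, against 22.6% of all genes tested) and for 28 with TMM scaling (71.8%, against 35.4%). In hydrogel, replicate 1 was highest for 22 of the 38 genes with counts (57.9%), against 41.4% of all genes tested. Genes of one library are not independent of each other, so these shares were not tested.

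Of the 22 genes with blank replicate 3 on top, 15 also had hydrogel replicate 1 as the highest hydrogel library, fibril A and B among them. Of the 13 genes with blank replicate 1 on top, 10 had blank replicate 2 as the lowest blank library and 6 had hydrogel replicate 1 as the lowest hydrogel library. The 6 genes with all of these features, with TMM scaling too, are fibril C, E and F, matrix B and interaction D and H. The orders also showed in the ratio of genes within a library, which does not depend on its depth, and gene length cancels when that ratio is compared between libraries. Fibril E was read at 16.0% of the CPM of fibril A in blank replicate 1, at 1.41% and 1.93% in blank replicates 2 and 3, and at 1.29%, 3.79% and 4.51% in hydrogel replicates 1, 2 and 3. Fibril C was read at 22.4%, 4.22% and 6.91% of fibril A in blank and at 1.86%, 7.27% and 10.3% in hydrogel. Fibril B, in contrast, kept between 27.4% and 37.2% of fibril A in every library. These 3 genes were picked for this contrast after their values were seen, and what differs between the libraries was not tested.

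The 7 genes whose groups overlapped were fibril C, E and F, matrix A, interaction E and G and adhesion G. In all 7 of them blank replicate 2 was the lowest blank library, and with TMM scaling the overlapping genes were the same 7. Without that library, 19 of the genes described here fell, against 12 with all 6 libraries. Of those 19, 7 had fallen with all 6 libraries and 12 had not. Matrix A, interaction E and G and adhesion G newly fell, while fibril C, E and F still did not pass. Matrix E and H, interaction C and adhesion F and J no longer passed. Over all genes tested, 246 fell without blank replicate 2, against 255 with all 6 libraries. Leaving out a gene's lowest blank library raises its blank mean, so nothing is read from the change.

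Spread between libraries of a group is likewise not independent of the choice, and is given as a description. The median SD of TMM-scaled log2 CPM over the 38 genes was 0.73 in blank and 0.32 in hydrogel, where over all genes tested it was 0.49 and 0.37. The blank SD was the larger for 31 of the 38 genes (81.6%), and for 62.5% of all genes tested. Among the fibril genes the blank SD was the larger in all 7, with medians of 0.87 in blank and 0.30 in hydrogel. The hydrogel libraries varied by less than 0.1 on this scale for fibril A, fibril G, matrix E, interaction A and adhesion B. Fibril C and F and interaction D were the exceptions in hydrogel, each with an SD above 1. In blank, the highest library was over 5 times the lowest in 7 genes: fibril C, E and F, interaction D, E and G and adhesion G.

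**Figure D5:**
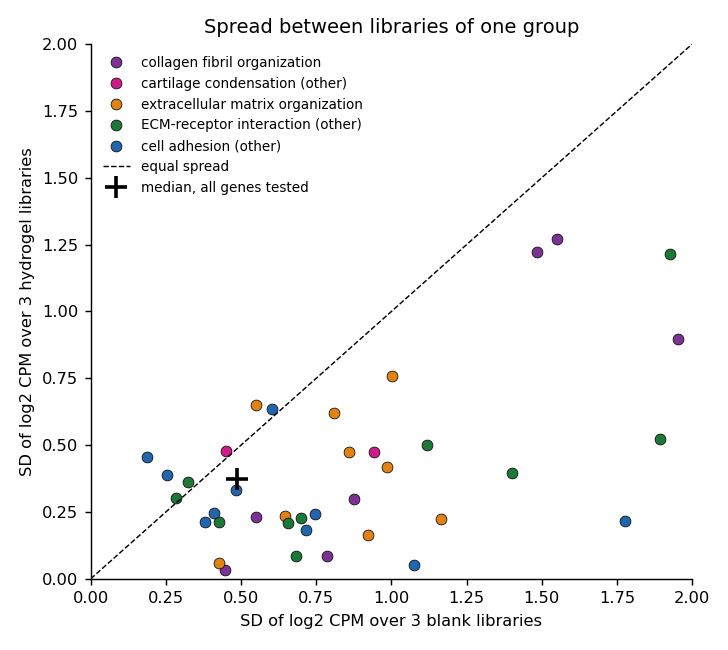
SD of TMM-scaled log2 CPM over the 3 hydrogel libraries against the SD over the 3 blank libraries for the 38 tested genes, colored by term; the dashed line marks equal spread and the cross the medians over all genes tested (0.49 in blank, 0.37 in hydrogel). Of the 38 genes, 31 lie below the line, and fibril C and F and interaction D stand alone above 1 on the hydrogel axis.

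The 5 terms overlap, and they overlap with further terms. Of the 39 genes, 23 are listed under 1 of the 5 terms, 11 under 2 and 5 under 3. Of the 16 genes under 2 or more terms, 3 fell (18.8%), and of the 22 tested genes under 1 term, 9 fell (40.9%). Over all genes tested 1.88% fell. Both sets were chosen on this contrast, so nothing is read from these counts. A further term in the authors' deposited lists holds 27 of the 39 genes. The largest such group was the same 15 genes under both PI3K-Akt signaling, a growth and survival pathway that integrins can feed, and focal adhesion, the contact of the cell's skeleton with the matrix. All 15 are listed under ECM-receptor interaction, 4 of them fell, and their median log2 fold change was -1.66. The other 12 genes of the PI3K-Akt list, which are not among the 39, had a median of -1.56, and 6 of them fell. The authors assigned this list to the same cluster, so its direction is not independent of that choice. Protein digestion and absorption, a KEGG map that as background includes collagens, lists 6 of the 39 genes: fibril A to E and interaction D. Of these 6 genes 0 passed edgeR's adjusted threshold, all 6 had an unadjusted p under 0.05 in edgeR, and all 6 passed with DESeq2. Over all genes tested, 1.88%, 10.7% and 5.62% did so in that direction. DESeq2 is the tool of the authors' own comparison, so passing with it is not independent of the choice. The authors' deposited table of changed genes holds only genes past a log2 fold change of 2 in either direction. It lists 1019 of the 16815 genes, 228 lower and 791 higher in hydrogel. Of the 39 genes it lists 12, all lower in hydrogel, a direction that follows from how the 39 were chosen. Of those 12, 4 are among the 12 that fell in edgeR: condensation A and matrix C, G and H.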

How the data were processed

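The deposited counts are whole numbers of reads per gene in 6 libraries. The submitters' processing notes name HISAT2 2.2.1 and featureCounts 2.0.2 beside FastQC 0.11.9, Trimmomatic 0.39, GATK 4.3.0.0 and DESeq2 1.34.0. Genome build, annotation and strand setting for rabbit were not given in the sources used here, and the same notes name a human and a mouse build, so how these rabbit counts were aligned is not known; overlapping genes and near-identical copies may share reads. The authors' deposited enrichment tables gave the terms, their genes and the authors' p-values, which were not used. The authors' deposited table of changed genes gave log2 fold changes and adjusted p-values, used to see which genes it holds.

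Counts were tested with edgeR 4.0.16 in R 4.3.3 (TMM scaling, filterByExpr by group, quasi-likelihood test, Benjamini-Hochberg adjustment over 13598 genes, threshold 0.05). Standard errors are approximate, from the F statistic. CPM used all counts of a library, and log2 CPM TMM scaling and a prior count of 2. The order of libraries was also taken on TMM-scaled CPM, an alternative chosen after seeing the data. Alternatives used DESeq2 1.42.0, limma 3.58.1, a replicate block, leaving out single libraries, and other scalings and filters. Plots used matplotlib 3.10.9.

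The genes and lists were chosen with earlier results of these data known. All 6 values are given for every gene of collagen fibril organization and cartilage condensation, every gene under 3 or more of the 5 terms, the 5 with the highest mean CPM, and the 5 largest and 3 smallest fold changes, 19 genes in all. Values of other genes were added after they were seen. Because no symbols were at hand, lists of genes and of cell type markers by symbol were not used, and at most 2 identifiers are printed.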

Additional observations from a re-analysis of the deposited data

How the results depend on the processing

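The number of the 39 genes that fell was 12 with a stricter filter or none and with upper-quartile or DESeq2 size factors in edgeR. In each of these it was the same 12 genes. Library sizes without the 10 highest genes gave these 12 too. TMM scaling offsets that change of library size, so this alternative could hardly differ and is no check (fibril A was at -1.62 both ways). The number was 9 with limma-voom, all among the 12. The DESeq2 test called all 39, with 2104 genes changed in all and 823 lower. Leaving out 1 library gave 0 to 19 of the 39 genes, 7 to 741 genes changed in all and 2 to 246 lower. The median log2 fold change stayed between -1.95 and -1.44 over all alternatives. The 19 genes with full values kept their direction in all 14, which include the one that could hardly differ. Single values moved more: without blank replicate 1, interaction D went from -3.09 to -1.46, fibril E from -2.41 to -0.98, fibril F from -2.42 to -1.48 and matrix B from -1.55 to -1.01. Without blank replicate 3, fibril A, B and D and matrix D went from -1.62, -1.66, -1.10 and -1.78 to -1.05, -0.97, -0.71 and -0.96. With the replicate number as a block, 0 of the 38 tested genes passed, and 15 genes passed in all, 5 of them lower. In that fit 31 of the 38 had an unadjusted p under 0.05 (edgeR). The share over all genes was not counted there, so nothing is read from that number. The deviations of libraries with the same number correlated at -0.20, 0.01 and -0.10. Blank replicate 2 was the only library of either group that correlated best with its own number. Blank replicate 1 correlated best with hydrogel replicate 3 (0.14) and blank replicate 3 with hydrogel replicate 1 (0.16). The labels do not say that numbers pair samples. With the 10 highest genes left out of the total only, the counts of all 39 genes came to 7.71% of it in blank (from 6.61%). In hydrogel they came to 2.61% (from 2.33%). The 3 of the 39 that are among those 10 genes stayed in the sum, so these values are not shares of a whole. The cause of these differences was not tested. The common biological coefficient of variation was 58.5%. Only adhesion K, 1 of the 39 genes, was kept from the test, by the filter on low counts. With no such filter all 39 were fitted.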
